A study of Saccharomyces cerevisiae with 16 samples.

Results

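The genes described here encode the proteins of the large (60S) subunit of the cytosolic ribosome of Saccharomyces cerevisiae. Members were all genes in the count files whose standard name is RPL followed by a number and, where a gene has a duplicate, by A or B. The proteins of the acidic stalk (RPP0 and the RPP1 and RPP2 genes) were left out. The rule gave 76 of the 7126 genes listed, and all 76 passed the filter on low counts. They form 43 families, of which 33 are pairs of copies (paralogs) and 10 are single genes (RPL3, RPL5, RPL10, RPL25, RPL28, RPL29, RPL30, RPL32, RPL38 and RPL39).

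All samples came from a strain without TRM10, a gene for a tRNA methyltransferase (trm10∆), so the deletion is shared by every group and no unmodified strain was measured. Spheroplasts, which are yeast cells stripped of their wall, were electroporated with no RNA, with rancRNA_18 or with rancRNA_18-M2. The first of these RNAs is a short ribosome-associated RNA derived from the TRM10 message, and the labels do not say how rancRNA_18-M2 differs from it. Poly(A) mRNA was sequenced from whole lysate (total) and from ribosome-bound material (polysomal), in 3 libraries per fraction for no RNA, likewise for rancRNA_18-M2, and in 2 total libraries for rancRNA_18. Both polysomal files of rancRNA_18 held equal counts in all 7126 genes and stand here for 1 library (n = 1). The 15 distinct libraries held 16691019 to 31148081 reads in genes, and TRM10 had 19 reads in all of them together. The labels do not say whether the replicates were separate cultures, so p-values measure the spread between these samples, which may be technical.

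The large subunit forms peptide bonds and carries the tunnel through which the new chain leaves. Yeast duplicated its genome in the past and kept a pair of copies for most of its ribosomal protein genes, many of which carry an intron although introns are rare in this species. The genes are switched together by Rap1, Fhl1 and Ifh1 according to growth conditions, and their messages are short, abundant and densely translated in growing cells.

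The members lay on 14 chromosomes, and 52 of the 76 carried an intron in the RefSeq annotation of assembly R64, RPL7A and RPL7B with a pair of introns each. The coding sequences ran from 78 to 1164 bases with a median of 468, against a median of 1197 over all genes with a coding length, and their median GC content was 42.9% against 39.8%. Of the 54 introns, 43 began with GTATGT (79.6%, against 65.7% of the 312 introns of all genes), and 51 held the branch point sequence TACTAAC in full (against 74.4% of all introns). Another start, GTACGT, was found in RPL16A, RPL16B, RPL22B, RPL27A and RPL27B.

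In what follows, the RPL41 copies and RPL22B are the lowest members in polysomal relative to total mRNA with no RNA. The RPL22 copies differ most from each other in that comparison. The sequences of both pairs are therefore shown first, read from RefSeq R64. RPL41A and RPL41B encode the shortest protein of the ribosome, and their whole coding sequences, on the minus strand at chrIV:130407-130484 and chrIV:221724-221801, differ at 1 base, given in capitals.
RPL41A: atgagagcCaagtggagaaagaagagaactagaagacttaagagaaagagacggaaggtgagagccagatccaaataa
RPL41B: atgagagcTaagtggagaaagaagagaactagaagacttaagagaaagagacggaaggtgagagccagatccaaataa
The copies RPL22A (plus strand, chrXII:263595-263684) and RPL22B (minus strand, chrVI:64510-64599) encode a protein that yeast can live without. Their coding bases 13 to 102 differ at 17 positions, given in capitals.
RPL22A: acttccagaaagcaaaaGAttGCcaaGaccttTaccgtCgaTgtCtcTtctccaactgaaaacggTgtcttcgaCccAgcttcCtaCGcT
RPL22B: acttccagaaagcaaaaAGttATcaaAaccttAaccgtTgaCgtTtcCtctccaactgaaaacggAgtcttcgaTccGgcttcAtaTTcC
The RPL22 copies also differ where their introns begin (chrXII:263200-263223, plus strand, and chrVI:64903-64926, minus strand). The 6 exon bases are followed by the intron, whose first 6 bases are in capitals.
RPL22A intron start: ccaaacGTATGAtactttaaaagg
RPL22B intron start: ccaaacGTACGTtaattttcgttc

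Upstream of the members, a sequence of the kind bound by Rap1 was common. Within 500 bases before the start codon, on either strand, ACCCANACA (N for any base) was present in 28 of 76 members (36.8%) against 3.10% of 6007 genes, and ATCCGTACA in 14 (18.4%) against 0.932%. No stretch of 9 bases can match both on 1 strand, and at least one of them was present in 39 members (51.3%) against 3.88% of genes. The 45 sites began 179 to 489 bases before the start codon, with a median of 311. The examples shown belong to 3 of the members highest in polysomal relative to total mRNA, with the motif in capitals and 9 bases on each side: RPL40A at chrIX:68343-68369 on the plus strand (356 bases before the start codon), RPL40B at chrXI:618976-619002 on the plus strand (243 bases) and RPL26B at chrVII:555519-555545 on the minus strand (284 bases).
RPL40A: gtttattacATCCGTACAttactaaga
RPL40B: aaagattgcACCCAGACAactacacaa
RPL26B: tcctattaaACCCAAACAcctttaatg
Neither motif was found before RPL3, RPL15B, RPL18B, RPL20B or the copies of RPL22 and RPL41. A match describes these letters and is not evidence of binding.

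The 60S genes took up a large part of every library. With no RNA they held 15.4, 11.5 and 11.1% of reads in the total libraries of replicates 1, 2 and 3, and 17.7, 16.3 and 14.1% in the polysomal libraries. With rancRNA_18-M2 the shares were 13.5, 12.0 and 10.3% in total and 17.7, 16.8 and 14.3% in polysomal mRNA. In each of these 6 same-numbered pairs the polysomal share was the higher one, while the groups overlapped with no RNA, where total replicate 1 exceeded polysomal replicate 3. For rancRNA_18 the total libraries held 13.0 and 11.3% and the polysomal library 17.5%.

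**Figure D1:**
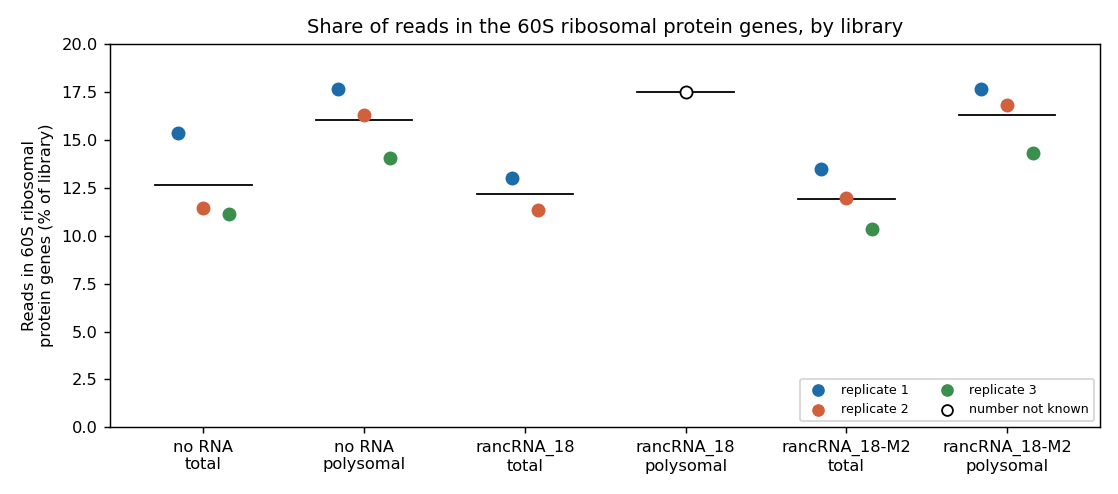
Percentage of each library's reads that fell in the 76 genes of the 60S ribosomal proteins, by group, with 1 point per library coloured by replicate number and a bar at the group mean. Polysomal points of a given number lie above the total point of that number, and number 1 is the highest in each group that has several libraries.

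Libraries of replicate 1 had the highest share in each group with more than 1 library. This spread between numbers was of the size of the difference between fractions: the median level of the members in total mRNA with no RNA was 10.82, 10.20 and 10.04 log2 CPM (reads per 1e6 reads in genes, after TMM scaling) in replicates 1, 2 and 3, and 11.28, 11.04 and 10.62 in polysomal mRNA. Libraries with the same number deviated together across all genes, so each comparison of fractions is given both without and with the replicate number in the model (the replicate block).

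Per kilobase of coding sequence, the levels of the members in total mRNA with no RNA ran over a wide range. RPL41B and RPL41A stood at 18619 ± 9464 and 17784 ± 7362 CPM per kb (SD, n = 3), followed by RPL43A at 9021 ± 4001, and their spreads overlapped. The lowest were RPL15B at 271 ± 65.4, RPL18B at 361 ± 91.4 and RPL7B at 481 ± 114 CPM per kb. How completely a library holds fragments of a gene as short as RPL41A was not measured.

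Polysomal mRNA was compared with total mRNA first in cells given no RNA. Messages for 60S proteins were, as a family, higher in polysomes: 70 of 76 had a log2 fold change above 0, with a median of 0.59 without the block and 0.60 with it, where the median of all genes was -0.03. With the replicate block 63 of 76 members were higher and 1, RPL41A, was lower (edgeR quasi-likelihood test, adjusted p under 0.05), beside 12.7% of all 6016 genes higher and 9.61% lower. Without the block no member passed in either direction (0% of all 6106 genes were higher and 0.197% lower). An unadjusted p under 0.05 in edgeR was reached by 24 members, beside 648 of those 6106 genes. DESeq2 without the block found 2 members higher, beside 0.721% of genes higher, 1.16% lower and 1.88% in either direction. In 14 of 76 members all 3 polysomal libraries lay above all 3 total libraries, beside 5.68% of all genes, and none lay wholly below, beside 7.68%.

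RPL40A encodes a ubiquitin fused to a 60S protein that joins the subunit late, in the cytoplasm. It had 2007, 1530 and 1176 CPM in the total libraries (replicates 1, 2 and 3) and 3594, 3025 and 1943 CPM in the polysomal libraries with no RNA. Each polysomal library exceeded its same-numbered total library, but polysomal replicate 3 fell below total replicate 1, so the groups overlapped. The log2 fold change was 0.85 (SE 0.14, n = 3 and 3, edgeR with the block, adjusted p = 0.00049), the largest of the family. Its copy RPL40B, with the same ubiquitin fusion, had 1200, 953 and 834 CPM against 1882, 1826 and 1376 CPM, with no overlap and a log2 fold change of 0.77 (SE 0.11, adjusted p = 0.00023).

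RPL20B and RPL20A rose by 0.82 (SE 0.11) and 0.78 (SE 0.11) on the log2 scale, RPL21B by 0.80 (SE 0.14) and RPL26B, a protein beside the exit tunnel, by 0.81 (SE 0.13), with adjusted p from 0.00015 to 0.00085 in edgeR with the block. For RPL20B the counts were 1418, 1222 and 1052 CPM in total and 2568, 2074 and 1895 CPM in polysomal mRNA, so that every polysomal library lay above every total library. For RPL26B they were 2161, 1519 and 1202 CPM against 3429, 3197 and 1919 CPM, where polysomal replicate 3 lay below total replicate 1.

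Of the genes for proteins at the tunnel and its exit, where the new chain meets its first partners (RPL4, RPL17, RPL19, RPL25, RPL26, RPL31, RPL35 and RPL39), 12 of 14 rose with no RNA and 12 of 14 with rancRNA_18-M2, with medians of 0.61 and 0.83. Over all genes 12.7% and 16.8% were higher, and over the family 63 and 64 of 76, with medians of 0.60 and 0.78. RPL25, the landing site of the signal recognition particle, had 2927, 2534 and 1954 CPM in total and 4369, 5314 and 3015 CPM in polysomal mRNA with no RNA, with no overlap (log2 fold change 0.77, SE 0.13, adjusted p = 0.00074). RPL39, a very small protein that lines the tunnel, had 1601, 1046 and 1029 CPM against 1978, 2173 and 1368 CPM (0.59, SE 0.15, adjusted p = 0.0084). The members of the list that did not pass were RPL4A, at -0.04 (SE 0.15), and RPL4B, at -0.06 (SE 0.15), whose protein reaches into the tunnel.

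Proteins that join late or in the cytoplasm (RPL10, RPL24, RPL29, RPL40 and RPL42) rose in 8 of 8 genes in both electroporations. Their medians were 0.70 and 0.89. Beside this stand the same 12.7% and 16.8% of all genes, and 63 and 64 of 76 members of the family, at medians of 0.60 and 0.78. With the trend of coding length removed, only RPL24A, RPL40A and RPL40B of the 8 passed with no RNA. RPL10, whose protein is among the last to be placed, had 5507, 3591 and 3577 CPM in total and 6737, 5011 and 5074 CPM in polysomal mRNA with no RNA. Only total replicate 1 lay within the polysomal range, and the log2 fold change was 0.43 (SE 0.12, adjusted p = 0.019). RPL29 was at 0.45 (SE 0.16, adjusted p = 0.043), but at -0.04 (adjusted p = 0.90) with the length trend removed, and RPL42A at 0.69 (SE 0.14, adjusted p = 0.0022).

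Around the peptidyl transferase centre, RPL2A, RPL2B and RPL10 rose and RPL3 did not. RPL3, which reaches to the edge of the centre and is the longest member, had 5089, 3408 and 4101 CPM in total and 4514, 2487 and 4106 CPM in polysomal mRNA with no RNA. Replicates 1 and 2 were lower in polysomes and replicate 3 was nearly equal, with a log2 fold change of -0.19 (SE 0.16, adjusted p = 0.41). The median over these 4 genes was 0.47.

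Of the 3 genes whose proteins hold the 5S rRNA, RPL11A rose by 0.58 (SE 0.11, adjusted p = 0.0014) and RPL11B by 0.44 (SE 0.11, adjusted p = 0.0075). RPL5 had 3460, 2255 and 2439 CPM in total and 3523, 2310 and 2944 CPM in polysomal mRNA, with a log2 fold change of 0.12 (SE 0.14, adjusted p = 0.61). In the L1 stalk and the stalk base, RPL1A (0.51, SE 0.12), RPL12A (0.67, SE 0.12) and RPL12B rose, and RPL1B was at 0.36 (SE 0.13, adjusted p = 0.052).

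RPL30 encodes a protein that holds back the splicing of its own transcript. Its levels were 3157, 2023 and 1725 CPM in total and 4807, 3592 and 2647 CPM in polysomal mRNA with no RNA, and 2705, 1379 and 1567 CPM against 4123, 3690 and 2530 CPM with rancRNA_18-M2. The log2 fold changes were 0.68 (SE 0.14, adjusted p = 0.0025) and 0.89 (SE 0.14, adjusted p = 0.00017).

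**Figure D2:**
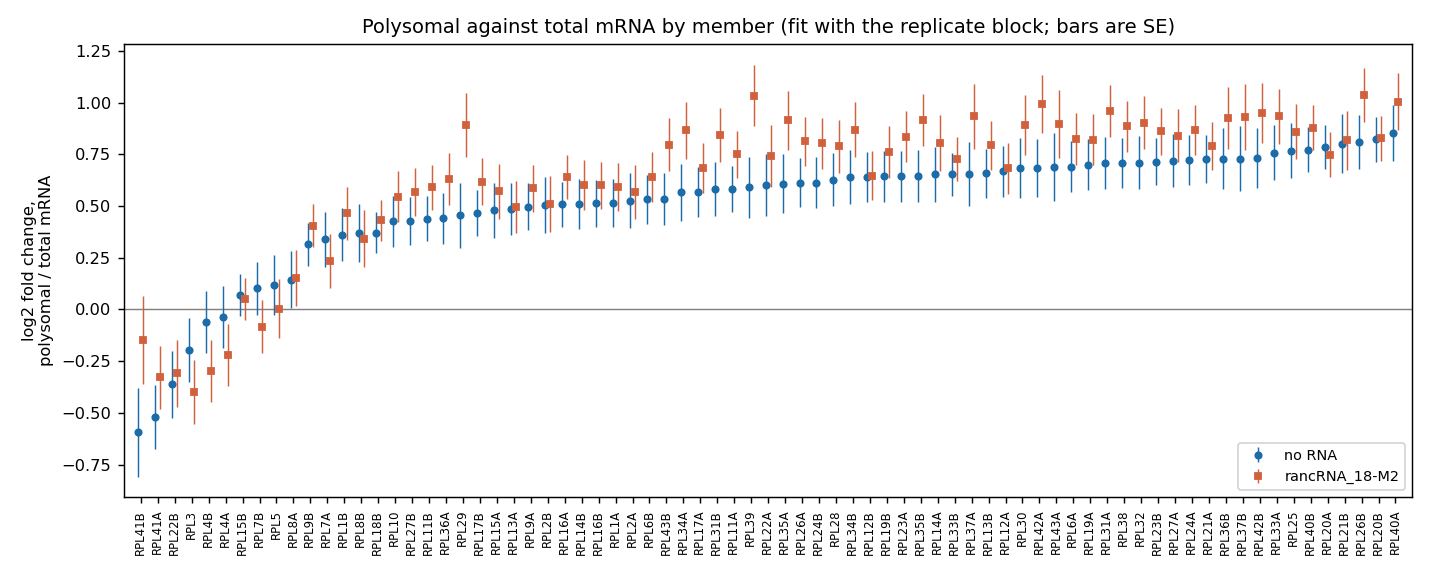
Log2 fold change of polysomal over total mRNA for the genes reported singly, ordered by the value with no RNA, from the edgeR fit with the replicate block (points, bars are SE; circles no RNA, squares rancRNA_18-M2). Most members lie above 0 in both, and RPL41A, RPL41B, RPL22B, RPL3, RPL4A and RPL4B lie below 0 in both.

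RPL41A was the member lower in polysomes. It had 2020, 1244 and 898 CPM in total and 1119, 1237 and 578 CPM in polysomal mRNA with no RNA, with a nearly equal pair at replicate 2. Its log2 fold change was -0.52 (SE 0.15, adjusted p = 0.022, edgeR with the block), and it lay below 0 in all 6 same-numbered pairs of no RNA and rancRNA_18-M2. The call was lost without total replicate 1 (adjusted p = 0.15), total replicate 3 (0.13), polysomal replicate 1 (0.076) or polysomal replicate 3 (0.055) with no RNA. RPL41B had 2297, 1132 and 928 CPM against 1216, 1275 and 504 CPM, at -0.59 (SE 0.21, adjusted p = 0.059).

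Because 1 base separates the RPL41 copies, reads of either can be counted for the other. Only 31.0% of the stretches of 50 bases in the coding sequence of RPL41A occur once in the R64 genome, counting both strands, so the pair is best read together. The counts of the copies of each pair were also summed before a fit with the block. With no RNA 37 of 43 families were then higher and 1 lower, beside 743 and 560 of 5983 genes. With rancRNA_18-M2 37 of 43 were higher and 0 lower, beside 986 and 928 of 5983 genes.

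Within each same-numbered pair of a total and a polysomal library, of which no RNA and rancRNA_18-M2 gave 3 each, 65 of 76 members were higher in polysomes every time. How many of all genes were higher every time was not counted. The median difference over all genes ran from -0.041 to 0.0021 (log2) across these pairs. RPL8A, RPL15B and RPL29 were higher in 5 pairs, RPL5 in 4, RPL7B in 3, RPL4A, RPL4B and RPL41B in 2, RPL3 and RPL22B in 1 and RPL41A in 0. The median difference over members was 0.37, 0.88 and 0.53 (log2) in replicates 1, 2 and 3 with no RNA and 0.76, 0.80 and 0.65 with rancRNA_18-M2. Replicate 2 gave the largest value in both.

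With rancRNA_18-M2 the comparison of fractions gave a like picture. With the replicate block 64 of 76 members were higher and 0 lower, beside 16.8% of all genes higher and 15.5% lower, with a median of 0.78. An unadjusted p under 0.05 in edgeR was reached by 67 members, beside 2498 of 6016 genes. DESeq2 with the block gave 65 higher and 1 lower, beside 18.7% and 13.7% of all genes. Without the block 0 members passed in either direction, beside 0.0819% of genes higher and 0.295% lower. In edgeR 52 members had an unadjusted p under 0.05, beside 1055 of 6106 genes. DESeq2 without the block found 21 members higher, beside 3.87% of genes higher, 2.82% lower and 6.68% in either direction. All 3 polysomal libraries exceeded all 3 total libraries in 30 of 76 members, beside 9.38% of all genes, and in none did they lie wholly below, beside 10.7%.

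RPL26B had 1833, 1190 and 1133 CPM in total and 3335, 3055 and 2145 CPM in polysomal mRNA with rancRNA_18-M2, without overlap, and the largest log2 fold change of the family there (1.04, SE 0.13, adjusted p = 4.1e-05). RPL39 followed at 1.03 (SE 0.15, adjusted p = 7.4e-05), with 1378, 875 and 829 CPM against 2218, 2390 and 1641 CPM. RPL40A had 1724, 1092 and 1103 CPM against 2850, 2909 and 2066 CPM, without overlap. RPL3 was again below 0, with 4838, 3766 and 3827 CPM against 4672, 2514 and 2547 CPM (-0.40, SE 0.16, adjusted p = 0.057).

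**Figure D3:**
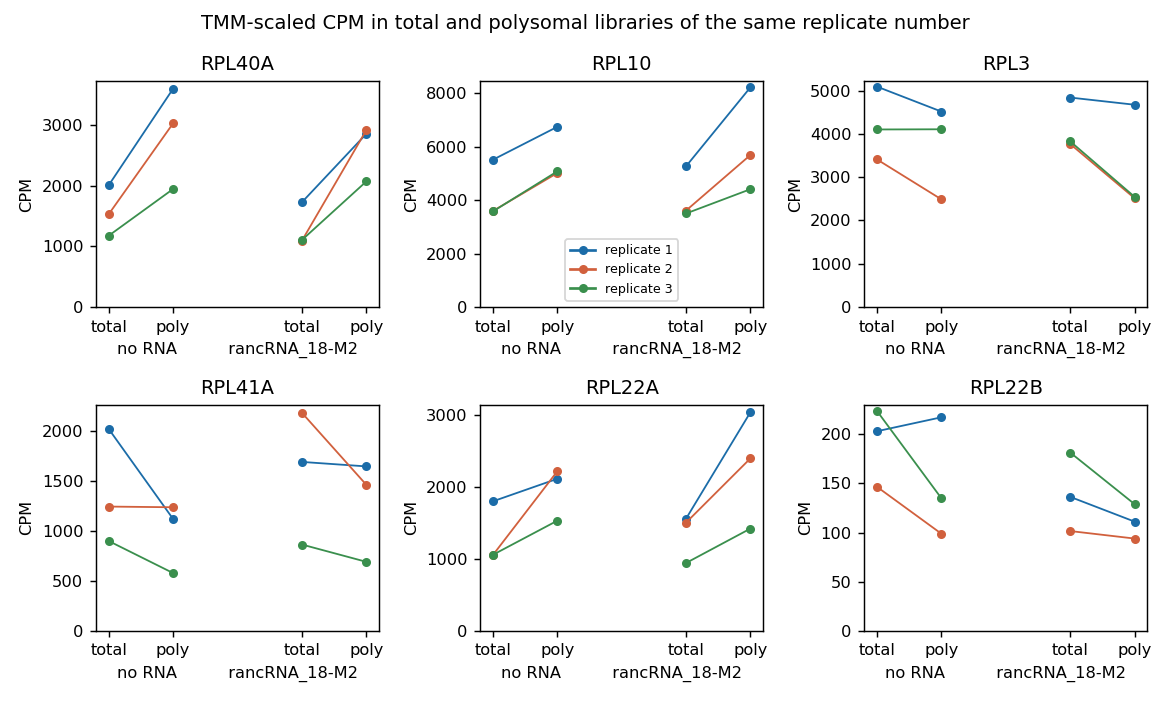
TMM-scaled CPM of 6 members for no RNA and rancRNA_18-M2, total beside polysomal (poly), with lines joining libraries of the same replicate number. RPL40A, RPL10 and RPL22A rise along every line, RPL3 falls or stays level, RPL41A falls or stays level, and RPL22B falls along every line but that of replicate 1 with no RNA.

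For rancRNA_18 a single polysomal library was set against 2 total libraries, and its spread was borrowed from the other groups. The identical files of that group are labelled 1 and 2, so the block was fitted with it as replicate 1 and as replicate 2. As replicate 1, 55 of 76 members were higher (8.32% of 6106 genes were higher and 3.93% lower), with a median of 0.74. As replicate 2, 68 were higher (16.2% of genes were higher and 13.6% lower), with a median of 1.07. Without the block 0 members passed in either direction, as for all genes, at a median of 0.90 with 73 of 76 above 0.

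RPL40A had 1462 and 1333 CPM in the total libraries with rancRNA_18 and 3675 CPM in the polysomal one. Its log2 fold change was 1.26 (SE 0.20, adjusted p = 0.0026) with that library as replicate 1 and 1.53 (SE 0.20, adjusted p = 4.7e-05) as replicate 2. The copies of RPL41 were the lowest members, at 1432 and 1348 CPM against 1059 CPM for RPL41A and 1049 and 1150 CPM against 870 CPM for RPL41B, and neither passed. With the library as replicate 1, fewer members were called higher when either total library was left out. Each fraction then held 1 library of rancRNA_18, and calls over all genes were not counted in those fits.

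How much the members changed was related to the length of their coding sequence. Across the 76 members the rank correlation of the log2 fold change with coding length was -0.42 with no RNA and -0.67 with rancRNA_18-M2 (Spearman, across genes, which share libraries and are not independent), and across 5714 genes it was -0.37 and -0.43. Among coding sequences from 300 to under 600 bases 48 of 49 members rose with no RNA, at a median of 0.64, while 338 of 758 other genes of that length rose, at a median of 0.32. At 600 bases and over, 8 of 18 members rose (median 0.36) and 268 of 4654 other genes (median -0.05), and under 300 bases 7 of 9 members rose (median 0.59) and 91 of 226 other genes (median 0.36).

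The trend with coding length was then removed by an adjustment of the polysomal libraries of each comparison, with the total libraries unchanged. The members' median was 0.27 for no RNA and 0.32 for rancRNA_18-M2. In these fits 16 and 28 members were higher, beside 3.97% and 7.85% of genes. RPL41A, RPL41B and RPL22B were then lower in both, at -1.12 (SE 0.16), -1.19 (SE 0.22) and -0.73 (SE 0.16) with no RNA, beside 6.88% of genes lower (12.0% with rancRNA_18-M2). Before the removal only RPL41A with no RNA had been called lower. The RPL41 copies, at 78 bases, lie at the short end of the trend. Other genes under 300 bases had medians of 0.36 with no RNA and 0.59 with rancRNA_18-M2. Whether the trend holds at 78 bases was not tested. RPL20B (0.55, SE 0.11), RPL20A (0.52, SE 0.11), RPL21B (0.51, SE 0.14) and RPL40A (0.50, SE 0.14) were the highest with no RNA. The part of message length in the difference between fractions was not tested.

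**Figure D4:**
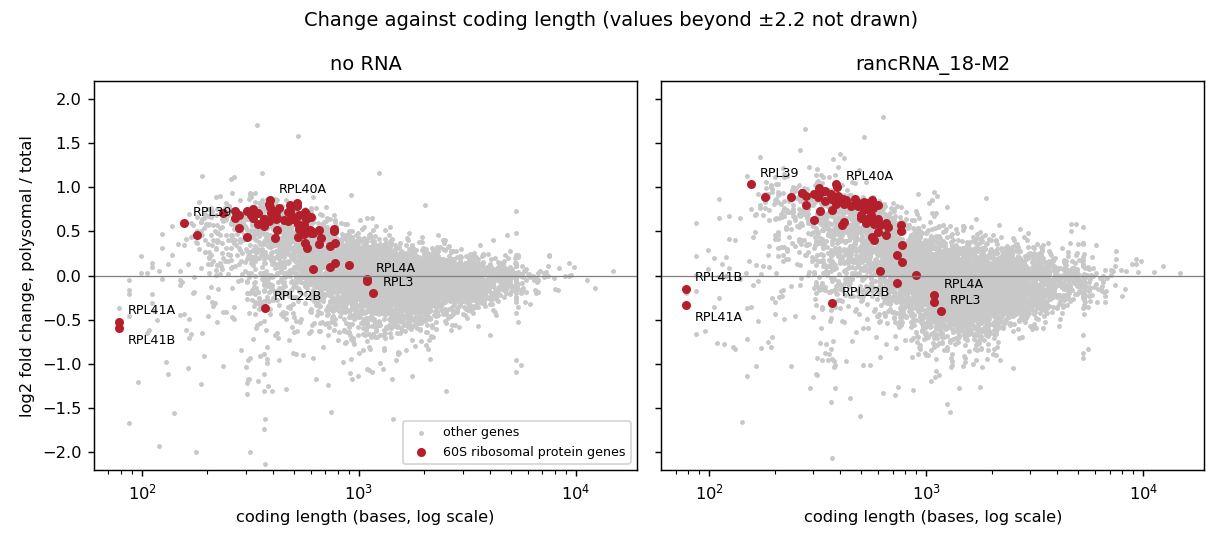
Log2 fold change of polysomal over total mRNA (fit with the replicate block) against coding length in bases on a log scale, for no RNA and rancRNA_18-M2, with 60S ribosomal protein genes in red and other genes in grey. Both clouds fall with length beyond about 300 bases, and RPL41A, RPL41B and RPL22B lie apart from members of like length.

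Members with an intron rose in 49 of 52 cases with no RNA (median 0.64) and those without in 14 of 24 (median 0.43), with 49 of 52 and 15 of 24 for rancRNA_18-M2. Outside the family 39.2% of 212 genes with an intron and 11.3% of 5426 without were higher with no RNA, and 48.6% and 15.3% with rancRNA_18-M2. The difference between these classes was not tested. The 3 intron-bearing members that did not pass with no RNA were RPL7A, RPL7B and RPL22B. The single genes rose in 8 of 10 cases and the paired copies in 55 of 66, with medians of 0.61 and 0.60. These splits overlap with length, since RPL3, RPL4A, RPL4B and RPL5 are long and lack an intron.

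The 33 pairs of copies were compared within each pair, where strain and library are shared and coding lengths are equal except in RPL16 and RPL22. Their coding sequences were 78.9 to 99.4% identical with a median of 93.7%, and 11 pairs were over 95%. In total mRNA with no RNA the more abundant copy held a median of 1.78 times the reads of the other per kilobase, 14 pairs differed by over 2-fold, and the A copy was the major one in 16 pairs and the B copy in 17.

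The least equal pair was RPL15, where RPL15A exceeded RPL15B 22.0-fold. RPL15B had 210, 160 and 131 CPM in total mRNA with no RNA, and RPL15A had 5296, 2834 and 2862 CPM. RPL22 differed 6.88-fold, with the A copy higher. The most equal pairs were RPL9 (1.01-fold), RPL41 (1.05-fold) and RPL21 (1.05-fold), whose shares of copy A were 48.7 ± 7.71, 49.4 ± 2.79 and 50.8 ± 3.22% (SD, n = 3).

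RPL22 was the pair whose copies differed most between fractions. RPL22A had 1802, 1055 and 1058 CPM in total and 2115, 2220 and 1532 CPM in polysomal mRNA with no RNA, while RPL22B had 203, 146 and 224 CPM against 217, 98.8 and 135 CPM. RPL22B was thus lower in polysomes in replicates 2 and 3 and slightly higher in replicate 1, while RPL22A was higher in all 3. The share of RPL22A in the pair's reads rose from 89.9, 87.8 and 82.5% to 90.7, 95.7 and 91.9% in the same-numbered libraries.

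The log2 fold changes were 0.60 (SE 0.15, adjusted p = 0.0077) for RPL22A and -0.36 (SE 0.16, adjusted p = 0.13) for RPL22B, a difference of 0.96. With rancRNA_18-M2 RPL22A was at 0.74 (SE 0.15, adjusted p = 0.00098) and RPL22B at -0.31 (SE 0.16, adjusted p = 0.16). The share of RPL22A rose in all 6 same-numbered pairs, by 0.814 to 9.37 percentage points. The Rpl22 protein is known to bind the intron of RPL22B and hold back its splicing, and how much of its count is unspliced RNA was not measured here.

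In RPL15 the copies differed by 0.41. RPL15A rose by 0.48 (SE 0.13, adjusted p = 0.015) and RPL15B was at 0.07 (SE 0.10, adjusted p = 0.66). RPL18B, with 244, 145 and 218 CPM in total and 299, 197 and 284 CPM in polysomal mRNA, rose by 0.37 (SE 0.10, adjusted p = 0.012).

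In RPL27 copy A exceeded copy B by 0.29 with the block, and in RPL36 copy B exceeded copy A by 0.31 without it. The least different pairs were RPL16 and RPL2, whose copies differed by 0.005 and 0.020 with the block although their levels differed 2.27- and 1.72-fold. In 15 of 33 pairs the share of copy A moved the same way in all 6 same-numbered pairs, up in 11 (among them RPL1, RPL6, RPL7, RPL11, RPL14, RPL15, RPL17, RPL22, RPL24 and RPL27) and down in 4 (RPL8, RPL13, RPL26 and RPL36). These directions were not tested against each other.

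**Figure D5:**
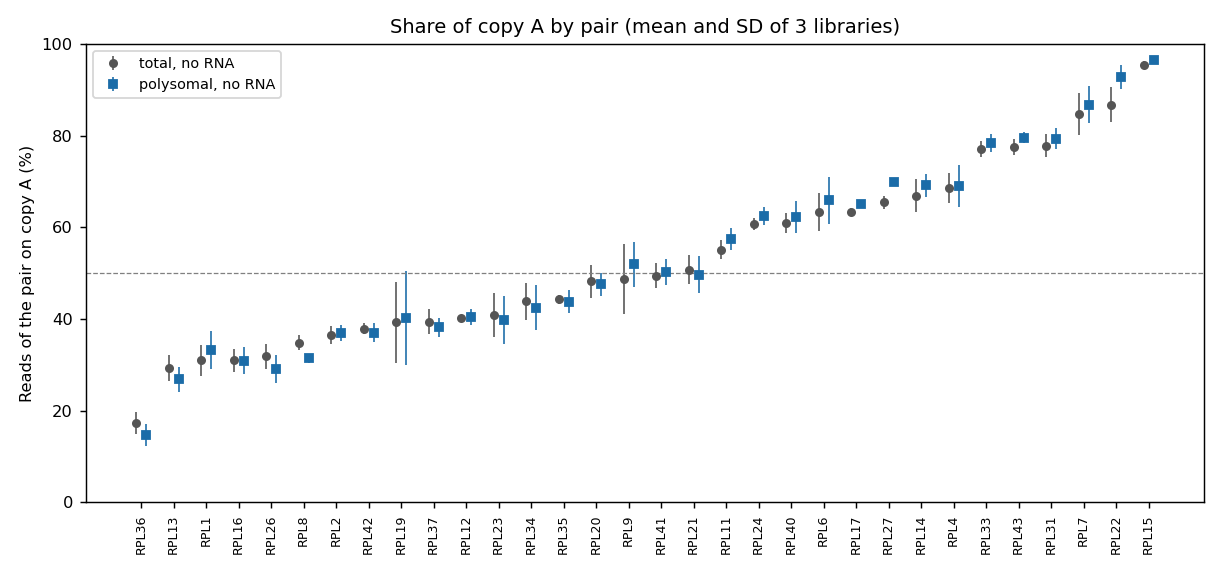
Percentage of a pair's reads that fell on copy A, for the pairs reported singly, ordered by the share in total mRNA (circles) with no RNA, beside polysomal mRNA with no RNA (squares), as mean and SD of 3 libraries. RPL36 is lowest and RPL15 highest, and RPL22 shows the widest step between fractions, from 86.7 to 92.8%.

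The more abundant copy had the higher log2 fold change in 26 of 33 pairs with no RNA and in 24 of 33 with rancRNA_18-M2 (with the block). Both copies rose in 26 pairs with no RNA, 1 copy in 3 (RPL1, RPL15 and RPL22) and neither in 4 (RPL4, RPL7, RPL8 and RPL41). With rancRNA_18-M2 both rose in 27, 1 copy in RPL15 and RPL22, and neither in the same 4. Shared stretches limit the separation of some copies. Of the coding stretches of 50 bases not broken by an intron, 18.9% occurred once in the genome in RPL35A, 19.0% in RPL1A, 27.3% in RPL4A and 37.8% in RPL7A.

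The electroporations were then compared within each fraction, which addresses whether rancRNA_18 alters these messages. In total mRNA no member passed in any of the 3 comparisons without or with the block (0% of all genes in each). The members' medians were -0.02 for rancRNA_18 against no RNA, -0.05 for rancRNA_18-M2 against no RNA and 0.04 for rancRNA_18 against rancRNA_18-M2. With the block they were -0.16, -0.03 and -0.13, so the last of these changed its sign. Unadjusted p under 0.05 in edgeR were reached by 0 members in each without the block, beside 27, 36 and 7 of 6106 genes. With the block they were reached by 7, 1 and 3 members, beside 578, 452 and 412 of 6016 genes. DESeq2 called 0 members without the block.

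Without the block, in rancRNA_18 against no RNA the highest members were RPL8B at 0.22 (SE 0.38) and RPL21B at 0.21 (SE 0.33), and the lowest were RPL22B at -0.57 (SE 0.32) and RPL41B at -0.40 (SE 0.48). With the block RPL8B was at 0.017 and RPL21B at 0.030, below RPL12A at 0.053, and RPL41B was the lowest at -0.68, followed by RPL22B at -0.45. RPL22B had 139 and 117 CPM with rancRNA_18 against 203, 146 and 224 CPM with no RNA, without overlap. In rancRNA_18-M2 against no RNA they were, again without the block, RPL41A at 0.19 (SE 0.42) and RPL21B at 0.17 (SE 0.30), then RPL22B at -0.45 (SE 0.29) and RPL30 at -0.29 (SE 0.33). RPL22B had 136, 102 and 181 CPM with rancRNA_18-M2, which overlaps no RNA. Both comparisons use the same no RNA libraries. Between the electroporated RNAs, without the block, RPL30 was at 0.23 (SE 0.37), RPL26B at 0.23 (SE 0.34), RPL23A at -0.24 (SE 0.30) and RPL41B at -0.20 (SE 0.48). With the block the extremes were RPL1B at 0.15 and RPL41B at -0.47.

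In polysomal mRNA no member passed for rancRNA_18-M2 against no RNA, without or with the block (0% of all genes), at medians of 0.11 and 0.09. Without the block, RPL29 was at 0.45 (SE 0.40) and RPL41A at 0.37 (SE 0.42), and RPL22B at -0.43 (SE 0.29) and RPL7B at -0.29 (SE 0.27). RPL29 had 1538, 1185 and 664 CPM with rancRNA_18-M2 against 937, 988 and 561 CPM with no RNA, higher in each number but overlapping between groups.

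For rancRNA_18 in polysomal mRNA the result turned on the number given to its single library. Without the block 0 members passed against no RNA or against rancRNA_18-M2 (0% of all genes), at medians of 0.30 and 0.19. With the library as replicate 1 the medians were -0.04 and -0.13 with 0 members called. With it as replicate 2 they were 0.32 and 0.24, and 6 members were higher than with no RNA (4.81% of genes) and 9 higher than with rancRNA_18-M2 (7.45% of genes).

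The 6 were RPL9A, RPL16A, RPL18B, RPL19B, RPL20B and RPL32, with log2 fold changes from 0.56 to 0.73, and were named after their values were seen. Without the block, RPL25 was at 0.46 (SE 0.41) and RPL20B at 0.45 (SE 0.33) against no RNA, RPL41B at -0.20 (SE 0.61) and RPL22B at -0.09 (SE 0.40). Against rancRNA_18-M2 RPL20B was at 0.53 (SE 0.33), RPL40A at 0.49 (SE 0.40), RPL41B at -0.39 (SE 0.62) and RPL41A at -0.26 (SE 0.60). The polysomal library of rancRNA_18 had 2984 CPM of RPL20B, above each polysomal library with no RNA (2568, 2074 and 1895 CPM) and with rancRNA_18-M2 (2438, 1947 and 1805 CPM).

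Whether the step from total to polysomal mRNA differed between electroporations was tested as an interaction. For rancRNA_18-M2 against no RNA 0 members passed without or with the block (0% of all genes), at medians of 0.16 with 69 of 76 above 0 and 0.13 with 67 above 0. With the block, RPL39 had a difference of 0.44 (SE 0.21) and RPL29 of 0.44 (SE 0.22), and RPL3 of -0.21 (SE 0.22), all with an adjusted p of 0.9998. For rancRNA_18 against no RNA the median was 0.32 without the block (0 called, 0% of genes), 0.14 with the library as replicate 1 (0 called) and 0.49 as replicate 2, where 1 member, RPL18B, passed at 0.70 (SE 0.18, adjusted p = 0.046), beside 1.65% of genes. Without the block and without total replicate 2 of rancRNA_18 it was at -0.025. For rancRNA_18 against rancRNA_18-M2 the medians were 0.15, -0.02 and 0.36 in the same order, with 0 called in each, beside 1.57% of genes higher in the last.

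Other genes of the ribosome give the frame for these values, all with the replicate block. Over all 6016 genes 762 were higher and 578 lower with no RNA, and 1010 and 934 with rancRNA_18-M2. The counts in the lists below were not tested against these. Among the 56 genes of the 40S subunit 51 rose with no RNA and 54 with rancRNA_18-M2, at medians of 0.65 and 0.80, and the 5 genes of the acidic stalk rose in both. For the large subunit of the mitochondrial ribosome only genes named MRPL and a number were taken. These 34 genes had medians of -0.09 and -0.01, with 2 higher and 6 lower, then 6 and 6. Of 10 regulators of transcription of this gene class 1 was higher and 2 were lower in each electroporation: with no RNA CRF1, a corepressor, rose by 0.36 (SE 0.12), and HMO1 and IFH1, activators, fell by 0.52 (SE 0.11) and 0.35 (SE 0.12) on the log2 scale. Of 19 chaperones and late assembly factors of 60S proteins 1 rose (LOC1, 0.36, SE 0.12) and 3 fell with no RNA (REI1, NMD3 and PUF6), and 1 and 7 with rancRNA_18-M2.

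The labels mention no spike-in, and values are therefore relative abundances within a library. In such bulk samples a change in the number of cells that supply a message and in the amount per cell cannot be told apart.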

How the data were processed

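Each deposited file lists, for 1 library, raw counts of reads by gene. FastQC, HISAT2 and featureCounts are named in the submitters' processing notes. Libraries came from oligo-dT selected RNA with a stranded Illumina kit, per the labels' protocols. Not given in the sources used here: the genome build, the strand setting and the treatment of reads that match several places. Near-identical copies, and genes overlapping on the other strand, are therefore uncertain one by one. A nameless line (at most 1 per file) was empty.

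Titles gave the groups and the replicate numbers. The pair of rancRNA_18 polysomal files was identical in 7126 genes, where other pairs within a group differed in 6404 to 6533, and was counted as 1 library. Of 7126 IDs 6048 matched RefSeq R64, used for names, coding length, introns and sequences.

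Counts were tested with edgeR 4.0.16 (R 4.3.3, TMM, filterByExpr, robust quasi-likelihood F-test, 1 coefficient per group) over 6106 genes and 12 contrasts, with 9 residual degrees of freedom, and Benjamini-Hochberg adjusted p under 0.05 over all genes counted as a call. After subtraction of group means, r across genes was 0.429 to 0.794 in the 26 same-numbered library pairs (each over 0.1) and -0.587 to 0.0296 in the 52 others, and all 14 libraries scored correlated best with their own number. The data, rather than any label, are the source of this pairing. The fit with the replicate block (14 libraries without the rancRNA_18 polysomal library, 6016 genes, 7 residual degrees of freedom) is therefore printed beside the planned fit. CPM are scaled by TMM, and log values for the members' medians used a prior count of 2. Alternatives were no filter on low counts, size factors, TMM from genes outside the ribosomal proteins, DESeq2 1.42.0, copies of a pair summed, a lowess trend with coding length (span 0.5) removed, and each library left out. The fits were also run on simulated data in which an effect of the replicate number was built in. That run checks the code and cannot show that the block is right for these libraries.

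The members and lists were chosen with earlier results of these data known. Depth was 16691019 to 31148081 reads in genes per library. Genes were named by rule: the 6 highest and 6 lowest log2 fold changes of polysomal over total mRNA with no RNA, members called against the rest, the 3 highest and lowest levels per kb, the pairs most and least different in change (4 and 2) or in level (3 each), the 2 highest and lowest members per comparison of electroporations, and 10 members by role. RPL7A, RPL8A, RPL8B and other members were named beside them to account for exceptions, after their values were seen. One item that the rule names is not reported here.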

Additional observations from a re-analysis of the deposited data

How the results depend on the processing

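Without the block, no filter, size factors, TMM outside the ribosomal proteins, summed copies and each library left out gave 0 called members in every comparison, as in the planned fit, and the medians kept their sign for polysomal against total mRNA. DESeq2 called 2 members higher with no RNA, 21 with rancRNA_18-M2 and 8 with rancRNA_18, beside 44, 236 and 31 of 6106 genes. With the replicate block the counts of higher members were 63 with no RNA (1 lower), also with the extra library as replicate 1 or 2 or with no filter, 64 with size factors or TMM outside the ribosomal proteins, 66 with DESeq2 (1 lower in each), 37 of 43 with copies summed (1 lower) and 16 with the length trend removed (3 lower, median 0.27). With rancRNA_18-M2 they were 64, 64 in each of the other scalings and filters, 65 with DESeq2 (1 lower), 37 with copies summed and 28 with the length trend removed (3 lower, median 0.32). With rancRNA_18 they were 55 with the library as replicate 1 and 68 as replicate 2 in each scaling and filter. They were 61 and 68 with DESeq2, 30 and 39 with copies summed, and 0 and 42 with the length trend removed (1 and 2 lower, medians 0.30 and 0.58). Of 6106 genes DESeq2 called 606 and 1079 higher there, and with copies summed 483 and 970 of 6073 were higher. The fits with the length trend removed called 20 and 580 higher and 83 and 583 lower.

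Calls over all genes were not counted in the fits with a library left out. Leaving out each library with the block gave 51 to 66 higher and 0 to 2 lower with no RNA. With rancRNA_18-M2 it gave 62 to 66 higher and 0 to 2 lower, where the median ran from 0.55 to 0.97 over both fits. With rancRNA_18 it gave 10 to 56 higher as replicate 1 and 60 to 68 as replicate 2, and without the block 0. In polysomal mRNA with the library as replicate 2, 6 members exceeded no RNA in each scaling and filter, 12 with DESeq2 and 1 with copies summed. The corresponding counts against rancRNA_18-M2 were 9 (8 with no filter), 15 and 1. For the interaction against no RNA they were 1, or 0 with no filter or summed copies, and 22 with DESeq2. Against rancRNA_18-M2 DESeq2 gave 7 for the interaction. With copies summed 289 and 449 of 6073 genes were higher in the polysomal comparisons. Of 6106 genes DESeq2 called 389 and 531 higher there (276 and 490 lower). In the interactions it called 226 and 184 higher (105 and 114 lower). All of these rest on the single polysomal library of rancRNA_18. In the other comparisons between electroporations 0 members were called in edgeR, without or with the block. The calls for polysomal against total mRNA did depend on the block. The cause of these differences was not tested.

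Single members reversed as follows. With the length trend removed RPL5 was at -0.042 with rancRNA_18-M2, RPL15B at -0.22 there and -0.13 with no RNA, and with no RNA RPL7B was at -0.026 and RPL29 at -0.039. In polysomal rancRNA_18 against no RNA with the block as replicate 1, over the planned scaling, no filter, size factors, TMM outside the ribosomal proteins and DESeq2, RPL9A was at -0.023, -0.021, -0.020, -0.022 and -0.020, RPL18B at -0.051, -0.049, -0.048, -0.050 and -0.048, and RPL19B at -0.11 in each. RPL22B in polysomal rancRNA_18 against no RNA was at 0.31 with the block as replicate 2, 0.31 with no filter, 0.33 with size factors, 0.32 with TMM outside the ribosomal proteins and 0.33 with DESeq2. Leaving out 1 library gave, over the fits without and with the block, for polysomal against total mRNA with no RNA, -0.37 to 0.044 for RPL3, -0.31 to 0.18 for RPL4B, -0.38 to 0.27 for RPL4A and -0.049 to 0.32 for RPL5, and with rancRNA_18-M2 -0.38 to 0.23 for RPL41B, -0.59 to 0.14 for RPL4A and -0.30 to 0.25 for RPL5. With no RNA it gave -0.070 to 0.35 for RPL7B and -0.14 to 0.27 for RPL15B. With rancRNA_18-M2 it gave -0.072 to 0.54 for RPL7A, -0.27 to 0.073 for RPL7B, -0.14 to 0.46 for RPL8A and -0.20 to 0.32 for RPL15B. For the interaction of rancRNA_18 against no RNA RPL18B ran from -0.025 to 0.75. In total rancRNA_18 against no RNA it gave -0.64 to 0.094 for RPL41B, -0.037 to 0.46 for RPL8B and -0.047 to 0.43 for RPL21B. In total rancRNA_18-M2 against no RNA it gave -0.63 to 0.0072 for RPL30, -0.12 to 0.56 for RPL41A and -0.10 to 0.37 for RPL21B. RPL41B ran from -0.43 to 0.17 for rancRNA_18 against rancRNA_18-M2 in total mRNA and from -0.52 to 0.011 for rancRNA_18 against no RNA in polysomal mRNA, where RPL22B ran from -0.32 to 0.28.

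The lowest count of a member in any library was 1542 reads, and what size of difference these libraries can show was not measured.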
